A study of Bos taurus with 20 samples.

Results

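The subunits of the ATP-dependent chromatin remodelling complexes were examined in bovine morulae, the balls of blastomeres that precede the blastocyst. Members were the probe sets whose single gene symbol in the array annotation begins with SMARC, ARID or INO80, or with CHD and a digit. The rule took 37 of 26773 probe sets on the array, 1 for each of 37 genes, of the 18457 probe sets that carry a single symbol. A 38th match carries the symbols of both *INO80E* and *DOC2A* and was left out. The rule also takes 7 members, *ARID3A* to *ARID3C*, *ARID4A*, *ARID4B*, *ARID5A* and *ARID5B*, that share the AT-rich interaction domain with the remodelling subunits but are not themselves subunits of a remodelling complex.

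Embryos were produced *in vitro* with X-sorted or Y-sorted sperm and cultured in SOF-BE1 medium, and at day 5 after insemination they received either human recombinant DKK1 at 100 ng/ml or vehicle (DPBS with BSA). DKK1 is a secreted antagonist of canonical WNT signalling. Morulae were harvested at day 6, after 24 h, and each of 20 arrays held RNA from a pool of 20 morulae. The 4 groups of 5 arrays were female DKK1, female control, male DKK1 and male control. By design, all groups share the culture system and differ in the sorted sperm and in DKK1. Sorting enriches sperm of 1 sex and does not purify them. A pool averages embryos that may differ in stage, since compacted and non-compacted morulae were both taken. In such pooled RNA, fewer cells of a type and less RNA per cell cannot be told apart.

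Chromatin remodellers are multi-subunit enzymes in which an SNF2-type ATPase uses the energy of ATP to slide, evict or exchange nucleosomes. The families are named for their motors. SWI/SNF (BAF and PBAF) complexes open regulatory DNA, ISWI complexes space nucleosomes, CHD enzymes read histone marks or act in the NuRD deacetylase complex, and INO80 complexes act on nucleosomes that contain the histone variant H2A.Z. In mammalian embryos several of these motors are needed around genome activation and the first lineage decisions, and maternal *SMARCA4* is required for zygotic genome activation in the mouse.

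All values are log2 intensities. Markers of morula blastomeres were bright in every group, with all 11 of 11 in the tested set and an average over the list of 8.97 to 9.48 per array, whereas 0 of 10 markers of cumulus and granulosa cells were in that set and their average was 3.54 to 3.99. Of the oocyte markers 2 of 7 were in it, with a list average per array of 4.82 to 5.63 in female DKK1, 5.17 to 6.20 in female control, 5.06 to 5.94 in male DKK1 and 5.52 to 5.79 in male control. Of the sperm markers 2 of 6 were in it, with averages of 4.01 to 4.80 over all arrays. One array stood apart. Male control replicate 2 had *XIST* at 8.81 and *DDX3Y* at 4.82, within the ranges of the 10 female arrays (8.42 to 10.03 and 2.65 to 5.43) and outside those of the other 9 male arrays (6.30 to 8.22 and 6.29 to 8.36). Its median correlation with the other arrays was 0.871, against 0.914 to 0.940 for the other 19 arrays. Its median over the tested probe sets was 7.02, below the 7.20 to 7.37 of the other 19 arrays. Each reported member difference that is larger than its SE and that moved by over 1.5 times on leaving out this array is also given without it.

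The first question was how strongly each subunit was registered in the morula. Of the 37 members, 29 were among the 10000 probe sets with the highest mean, the set in which differences were tested, and 14 were among the upper 5000. The lowest mean of the tested set was 5.46. Probe sets differ in affinity, so these intensities give an order of array signal and not of transcript abundance between genes. The 5 brightest members were *SMARCA5*, the ISWI motor, at 10.46 (percentile 97.8 among all probe sets), *CHD2* at 9.14, *CHD4* at 8.81, *CHD1* at 8.51 and *INO80D*, a subunit of the INO80 complex, at 8.47. The 8 members below the tested set were *ARID3B* (4.97), *CHD3* (4.77), *CHD7* (4.76), *ARID3C* (4.36), *ARID5B* (4.34), *SMARCD3* (3.98), *CHD5* (3.72) and *SMARCA1* (2.50, percentile 7.40). Several of these have better known roles in differentiated tissue: *SMARCD3* is a cardiac and neural SWI/SNF subunit, *CHD5* is a neuronal NuRD helicase, and *SMARCA1* is the ISWI motor best known from neurons.

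**Figure D1:**
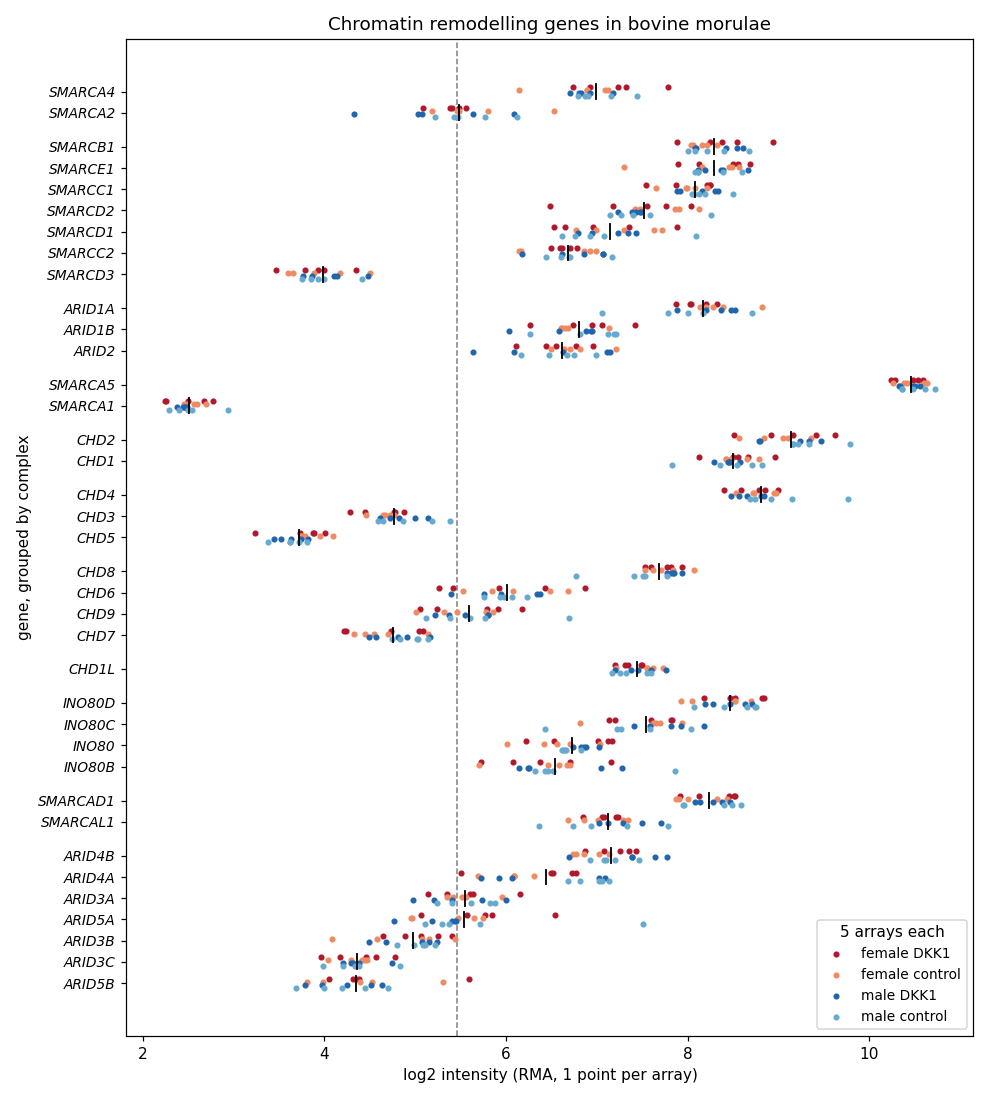
Log2 intensity (horizontal axis) of each of the 37 members (vertical axis, grouped by complex), with 1 point per array coloured by group, a black tick at the mean of 20 arrays and a dashed line at 5.46, the lowest mean of the tested set. *SMARCA5* lies at 10.46 and *SMARCA1* at 2.50, and the 4 colours are intermixed for most members.

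Within several families 1 paralog was registered in the tested set and its close relative was not. *SMARCA5* averaged 10.43 ± 0.16 in female DKK1, 10.46 ± 0.16 in female control, 10.44 ± 0.10 in male DKK1 and 10.51 ± 0.16 in male control (SD, n = 5 each). Its X-linked paralog *SMARCA1* averaged 2.48 ± 0.24 in female DKK1, 2.56 ± 0.10 in female control, 2.44 ± 0.04 in male DKK1 and 2.53 ± 0.25 in male control. *CHD4*, the main ATPase of NuRD, was among the 3 brightest members, while *CHD3* and *CHD5*, the alternative NuRD ATPases, were at or below 4.93 in every group mean. *SMARCD1* (7.15) and *SMARCD2* (7.53) were in the tested set and *SMARCD3* was not. *ARID4A* and *ARID4B* were in it, as was *ARID3A* by a small margin (5.55), and *ARID3B* and *ARID3C* were not.

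The order of the members was nearly the same in the 4 groups. Spearman's correlation of the group means over the 37 members was between 0.983 and 0.996 for the 6 pairs of groups, as a description over genes that share arrays. *SMARCA5*, *CHD2* and *CHD4* held the first 3 places in every group. The average over the 29 members per array was 7.35 ± 0.17 in female DKK1 (7.19 to 7.60), 7.31 ± 0.11 in female control (7.19 to 7.42), 7.35 ± 0.13 in male DKK1 (7.20 to 7.52) and 7.38 ± 0.02 in male control (7.35 to 7.41), so the 4 groups overlapped. The SD within groups had a median of 0.334 over the 29 members, from 0.146 for *SMARCA5* to 0.606 for *ARID5A*, beside 0.366 over all tested probe sets.

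The main comparison was whether DKK1 altered these transcripts. In limma, 0 of the 29 members had an adjusted P under 0.05 for DKK1 over both sexes, beside 0% of all tested probe sets, and 0 had an unadjusted P under 0.05, beside 3.6% (2.35% with a positive and 1.25% with a negative difference). The groups overlapped for every member, as they did for all tested probe sets (0% without overlap). The differences, DKK1 minus control, ran from -0.34 for *SMARCA2* to 0.26 for *ARID4B*, with a median of -0.02 over the members and 0.03 over all tested probe sets. They were above 0 for 13 of 29 members (44.8%), beside 58.4% of all tested. Without male control replicate 2 the median of the members minus that of all tested was 0.01. The precision was such that the 95% interval of the difference lay within a 1.5-fold change in either direction for 25 members and within a 2-fold change for all 29. A 2-fold bound also held for 94.9% of all tested probe sets.

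The same comparison was made in each sex. In females 0 of 29 members had an unadjusted P under 0.05 for DKK1, beside 4.12% of all tested probe sets (2.5% positive, 1.62% negative), and the differences were above 0 for 17 (58.6%), beside 53.6%. In males 3 of 29 had one (10.3%), beside 4.27%. They were *CHD8* with a positive difference, beside 2.96% of all tested in that direction, and *ARID4A* and *CHD4* with negative ones, beside 1.31%. These 3 were singled out after their values were seen. In males 11 of 29 differences were above 0 (37.9%), beside 56.8% of all tested. Their median was -0.07, beside 0.04 over all tested. These values include male control replicate 2, the array that stood apart. Without it the median of the members minus that of all tested was -0.01 in males. No adjusted P was under 0.05 in either sex, beside 0% of all tested in each. No member had DKK1 and control arrays without overlap, beside 0.65% of tested probe sets in females and 0.77% in males. The interval lay within a 2-fold change for 28 of 29 members in females, beside 83.5% of all tested, and for 26 of 29 in males, beside 82.7%.

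**Figure D2:**
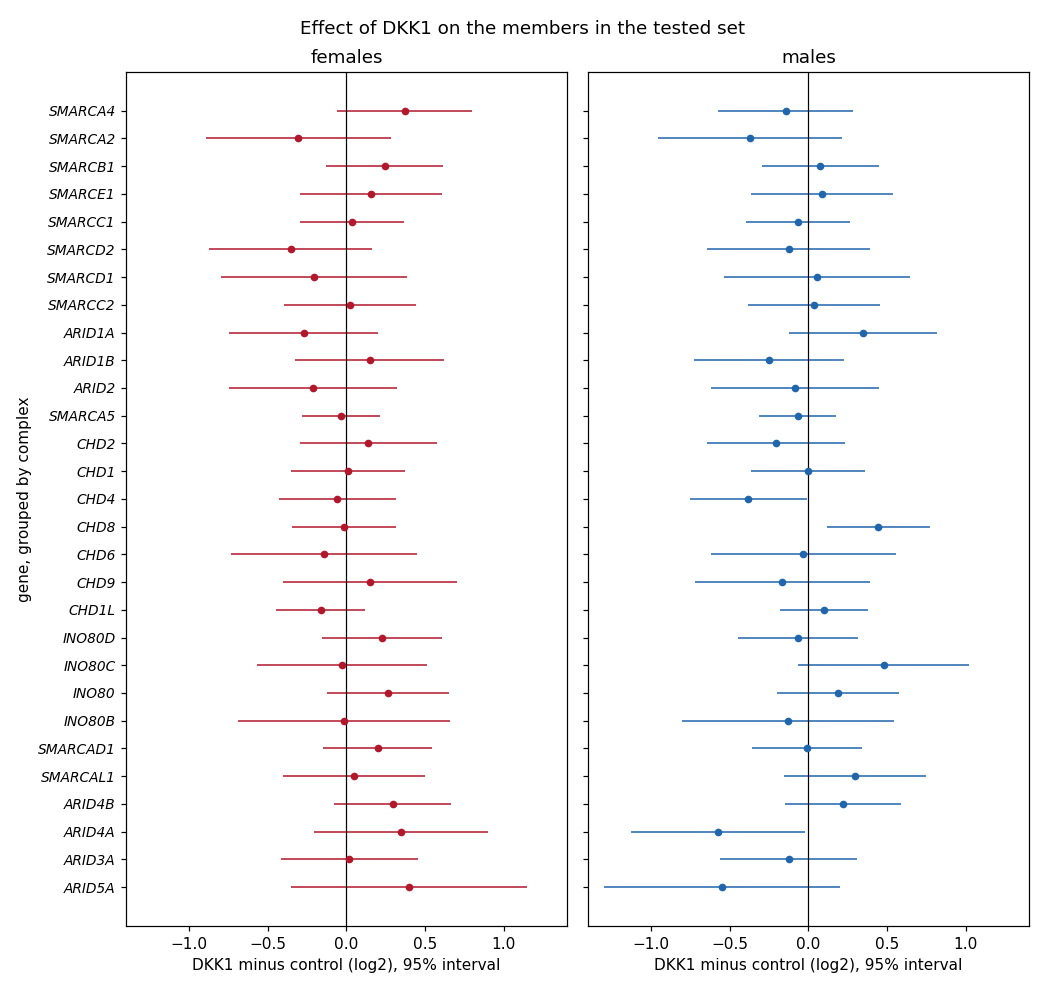
Difference DKK1 minus control in log2 intensity (horizontal axis) with its 95% interval for the 29 members in the tested set (vertical axis, grouped by complex), in females on the left and in males on the right. The interval excludes 0 only for *CHD8*, *ARID4A* and *CHD4*, all in males.

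The sex contrast and the interaction were read in the same way. For female minus male, 0 of 29 members had an adjusted P under 0.05, beside 0.07% of all tested, and 1 had an unadjusted P under 0.05 (3.45%), beside 6.38% (3.71% positive, 2.67% negative). That member was on the negative side. The differences ran from -0.43 to 0.12 with a median of -0.03, beside -0.01 over all tested, and 13 of 29 were above 0 (44.8%), beside 47.8%. Intervals lay within a 1.5-fold change for 27 members and within a 2-fold change for 29, beside 94.3% of all tested for the 2-fold bound. For the interaction, the DKK1 difference in females minus that in males, 0 had an adjusted P under 0.05, beside 0%, and 1 had an unadjusted P under 0.05 (3.45%), a positive one, beside 4.6% (1.98% positive, 2.62% negative). The interaction was above 0 for 19 of 29 members (65.5%), beside 47.2% of all tested. It is the least precise contrast, and its interval lay within a 2-fold change for 20 members, beside 57.3% of all tested. The 1 member in each case was *ARID4A*.

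The catalytic SWI/SNF subunits are *SMARCA4* (BRG1) and *SMARCA2* (BRM), which are mutually exclusive in a complex. *SMARCA4* was at 7.23, 7.32, 6.92, 7.79 and 6.74 in female DKK1 replicates 1 to 5, against 6.90, 7.09, 7.13, 6.89 and 6.14 in female control. In males it was at 6.81, 6.71, 7.18, 6.93 and 6.83 in male DKK1, against 6.87, 6.80, 7.15, 6.90 and 7.45 in male control. The highest array was a female DKK1 array and the lowest a female control array, and the groups overlapped in both sexes. The difference was 0.37 in females (95% interval -0.06 to 0.80, adjusted P = 0.999, limma) and -0.14 in males (95% interval -0.57 to 0.29), and the interaction was 0.51 (SE 0.291, adjusted P = 0.972). Without female control replicate 5, the lowest array, these were 0.20 in females and 0.34 for the interaction. *SMARCA2* averaged 5.39 ± 0.18 in female DKK1 and 5.69 ± 0.52 in female control, and 5.23 ± 0.67 in male DKK1 and 5.60 ± 0.35 in male control (SD, n = 5 each). Its DKK1 difference of -0.34 (SE 0.199, adjusted P = 1.00, limma) had 9 of 10 DKK1 arrays below the control mean, at an intensity close to the limit of the tested set. Most control arrays also lay below that mean, which was raised by 6.53 in female control replicate 2. The ranges overlapped, at 4.33 to 6.09 in DKK1 and 5.18 to 6.53 in control.

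The core and accessory SMARC subunits build the scaffold around these motors. *SMARCB1*, the core subunit that contacts the nucleosome, *SMARCE1*, an HMG-box subunit, *SMARCC1* and *SMARCC2*, the scaffold pair, and *SMARCD1* and *SMARCD2* had DKK1 differences between -0.24 and 0.16, and 3 of the 6 were above 0. None had an unadjusted P under 0.05 in any contrast. *SMARCC1*, named for its rank by P for sex, was at 8.21, 7.87, 8.24, 8.25 and 7.54 in female DKK1 and at 7.65, 8.22, 8.08, 7.99 and 7.98 in female control. In males it was at 8.33, 7.92, 8.30, 8.16 and 7.89 in male DKK1 and at 8.13, 8.50, 8.20, 8.07 and 8.05 in male control. The lowest 2 arrays were female and the highest 3 were male, and the sexes overlapped between them. Female minus male was -0.15 (SE 0.112, adjusted P = 0.994, limma), and -0.09 without female DKK1 replicate 5.

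The ARID subunits of SWI/SNF set which form of the complex is built: *ARID1A* and *ARID1B* define BAF and *ARID2* defines PBAF. *ARID1A* was at 8.03, 7.87, 8.04, 8.32 and 8.20 in female DKK1, against 8.28, 8.39, 8.81, 8.14 and 8.20 in female control. It was at 8.20, 8.36, 8.52, 8.48 and 7.88 in male DKK1, against 8.71, 7.05, 8.00, 7.78 and 8.17 in male control. Male control replicate 2 held the lowest value of all arrays, and DKK1 and control arrays overlapped in both sexes. The difference was -0.27 in females and 0.35 in males, and the interaction was -0.62 (SE 0.320, adjusted P = 0.972, limma). Without male control replicate 2 the difference in males was 0.13 and the interaction was -0.40, and without female control replicate 3 the difference in females was -0.16. *ARID1B* and *ARID2* had DKK1 differences of -0.05 (95% interval -0.39 to 0.29) and -0.15 (95% interval -0.53 to 0.23).

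Of the ISWI motors only *SMARCA5*, the ATPase of the ACF, CHRAC and NoRC complexes, was in the tested set. It was the most evenly measured member, and its group means lay within 10.43 to 10.51. Its DKK1 difference was -0.05 (SE 0.0833, 95% interval -0.23 to 0.12, limma), and female minus male was -0.03 (95% interval -0.21 to 0.14).

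The CHD family includes *CHD1* and *CHD2*, which bind promoters and gene bodies of active genes, the NuRD ATPases and *CHD6* to *CHD9*. *CHD1* had DKK1 differences of 0.01 in females and -0.00 in males. *CHD2* was at 9.16, 8.92, 9.41, 9.62 and 8.51 in female DKK1 and at 8.57, 9.05, 9.36, 9.11 and 8.84 in female control. In males it was at 8.80, 9.24, 9.47, 9.34 and 8.79 in male DKK1 and at 9.34, 9.79, 9.16, 9.17 and 9.21 in male control. Male control replicate 2 held the highest value, and the groups overlapped. Female minus male was -0.17 (SE 0.148, adjusted P = 1.00, limma), and -0.10 without female DKK1 replicate 5.

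*CHD8* encodes a helicase that binds β-catenin and represses its target genes in mammalian cells. It was at 7.84, 7.77, 7.82, 7.85 and 7.94 in male DKK1, against 7.51, 6.77, 7.41, 7.53 and 7.78 in male control. All 5 male DKK1 arrays lay above the mean of male control, and only male control replicate 5 reached into the male DKK1 range. Females did not show this separation: *CHD8* was at 7.78, 7.60, 7.82, 7.94 and 7.53 in female DKK1, against 7.84, 7.53, 7.70, 8.07 and 7.62 in female control. The difference in males was 0.44, a 1.36-fold ratio (SE 0.158, 95% interval 0.12 to 0.77, adjusted P = 0.988, limma), and in females it was -0.02 (95% interval -0.35 to 0.31). The interaction was -0.46 (SE 0.223, adjusted P = 0.972), and DKK1 over both sexes was 0.21 (SE 0.111, adjusted P = 1.00). Male control replicate 2, whose sex markers go against its label, held the lowest value at 6.77. Without it the difference in males was 0.29, still with an unadjusted P under 0.05, the interaction was -0.30 and DKK1 over both sexes was 0.14.

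*CHD4* was at 8.81, 8.66, 8.84, 8.56 and 8.48 in male DKK1, against 8.74, 9.77, 9.15, 8.92 and 8.69 in male control. All 5 male DKK1 arrays lay below the mean of male control, though 2 male control arrays lay within their range. In females it was at 8.79, 8.59, 8.85, 8.99 and 8.40 in female DKK1, against 8.97, 8.73, 8.95, 8.72 and 8.53 in female control, with full overlap. The difference was -0.38 in males (SE 0.178, 95% interval -0.76 to -0.01, adjusted P = 0.988, limma), -0.06 in females (95% interval -0.43 to 0.32) and -0.22 over both sexes (SE 0.126, adjusted P = 1.00). Male control replicate 2 was again the extreme array, at 9.77, and without it the difference in males was -0.21, with an unadjusted P above 0.05, and that over both sexes was -0.13.

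**Figure D3:**
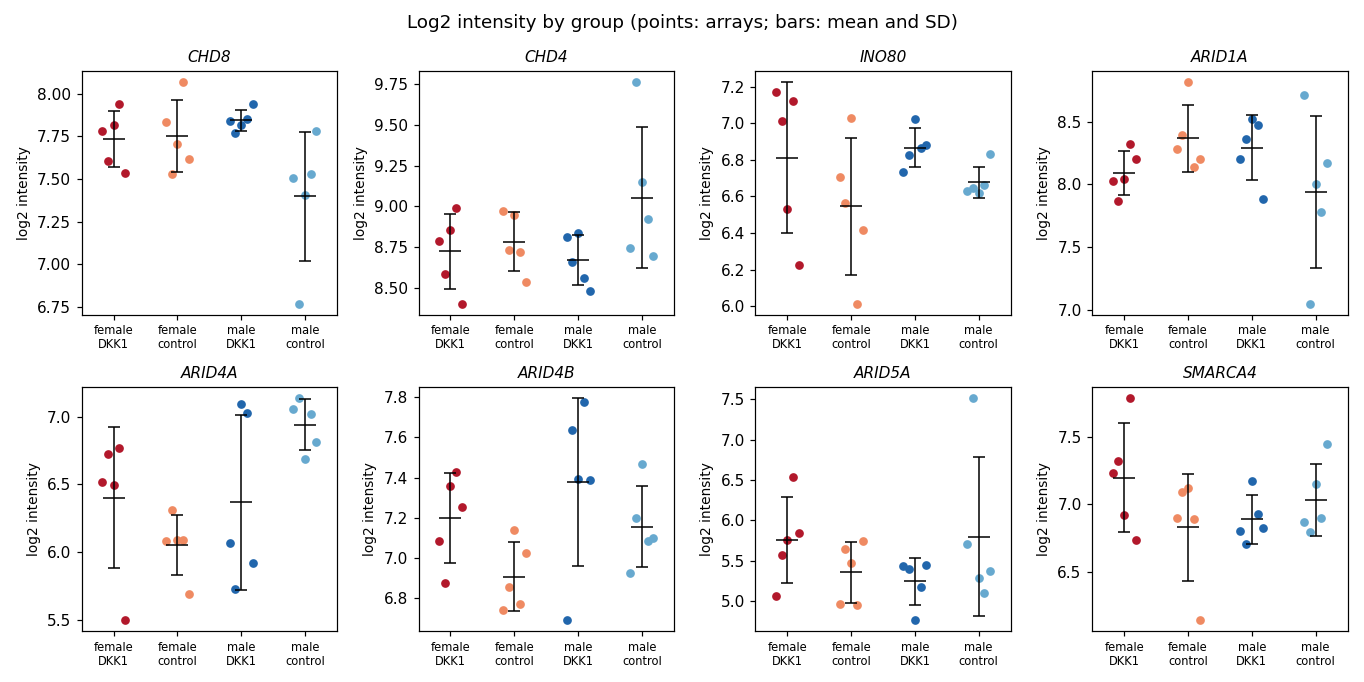
Log2 intensity (vertical axis, a separate scale for each gene) of 8 members in female DKK1, female control, male DKK1 and male control, with 1 point per array and bars for the mean and SD of 5 arrays. *CHD8* is tightly grouped in male DKK1 (7.77 to 7.94), and the lowest *CHD8* and *ARID1A* and the highest *CHD4* and *ARID5A* values all belong to male control replicate 2.

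The remaining tested CHD members had no unadjusted P under 0.05 in any contrast. *CHD6* averaged 5.98 ± 0.68 in female DKK1 and 6.12 ± 0.47 in female control, and 5.96 ± 0.41 in male DKK1 and 5.99 ± 0.18 in male control. *CHD9* averaged 5.64 ± 0.47 in female DKK1 and 5.48 ± 0.34 in female control, and 5.55 ± 0.26 in male DKK1 and 5.71 ± 0.60 in male control. *CHD1L* (ALC1), a remodeller recruited by poly(ADP-ribose) at DNA breaks, had a difference of -0.16 in females (95% interval -0.45 to 0.12), with all 5 female DKK1 arrays below the female control mean, and 0.10 in males (95% interval -0.18 to 0.38).

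*CHD3* was below the tested set and was fitted only over all probe sets, with no adjusted P over the tested set. It was at 4.76, 4.77, 4.28, 4.88 and 4.45 in female DKK1 and at 4.67, 4.46, 4.73, 4.77 and 4.64 in female control, against 4.72, 4.82, 5.14, 4.61 and 5.00 in male DKK1 and 4.59, 5.39, 4.87, 5.19 and 4.65 in male control. All 10 female arrays lay below the male mean of 4.90, though female DKK1 replicate 4 did so by a small margin, at 4.88. The male arrays spread to higher values. The highest, 5.39, was male control replicate 2, whose sex markers go against its label. That array counts in the male mean and in the difference that follows, and neither is given without it. Female minus male was -0.26 (SE 0.112, 95% interval -0.49 to -0.02, limma), and its unadjusted P was under 0.05. It was the smallest unadjusted P for sex of the 37 members. The share of probe sets below the tested set with such a P is not given. Of the other CHD members below the set, *CHD5* had a female minus male difference of 0.17 (95% interval -0.03 to 0.38) and *CHD7*, a helicase of neural crest development, one of -0.23 (95% interval -0.51 to 0.06).

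The INO80 complex was represented by its ATPase *INO80* and the subunits *INO80B*, *INO80C* and *INO80D*, all in the tested set. *INO80* was at 7.17, 7.01, 6.53, 7.12 and 6.22 in female DKK1, against 6.71, 6.57, 7.03, 6.01 and 6.42 in female control. It was at 6.73, 6.83, 7.03, 6.86 and 6.88 in male DKK1, against 6.63, 6.64, 6.62, 6.66 and 6.83 in male control. Male arrays were closely grouped and female arrays widely spread, and 4 of 5 male control arrays lay below every male DKK1 array. The DKK1 difference was 0.23 over both sexes (SE 0.131, adjusted P = 1.00, limma), 0.27 in females and 0.19 in males. Without female control replicate 4, the lowest array, the difference in females was 0.13. Of the 4 subunits 3 had DKK1 differences above 0, between 0.08 and 0.23, and *INO80B* was at -0.07. *INO80C* had 0.48 in males (95% interval -0.06 to 1.02), with 7.79 ± 0.30 in male DKK1 and 7.31 ± 0.59 in male control, and -0.03 in females, with 7.51 ± 0.33 in female DKK1 and 7.54 ± 0.43 in female control (SD, n = 5 each). Without male control replicate 3 the difference in males was 0.26.

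The distant SNF2 enzymes *SMARCAD1*, a remodeller of DNA replication and end resection, and *SMARCAL1*, which reanneals DNA at stalled replication forks, had DKK1 differences of 0.09 (95% interval -0.15 to 0.34) and 0.17 (95% interval -0.15 to 0.49). In males *SMARCAL1* averaged 7.33 ± 0.28 in male DKK1 and 7.03 ± 0.55 in male control, a difference of 0.30 (95% interval -0.15 to 0.75). Without male control replicate 2 it was 0.13, and over both sexes 0.09.

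Of the ARID proteins outside the remodelling complexes, *ARID4A* and *ARID4B* are paralogs that act in the SIN3 deacetylase complex and bind the retinoblastoma protein. *ARID4A* was at 6.52, 6.72, 6.50, 6.77 and 5.50 in female DKK1, against 6.09, 6.31, 6.09, 6.09 and 5.69 in female control. It was at 6.07, 5.73, 7.10, 7.02 and 5.92 in male DKK1, against 7.05, 7.14, 6.69, 7.02 and 6.81 in male control. In females 4 of 5 DKK1 arrays lay above every control array and the fifth lay below them all. In males 3 of 5 DKK1 arrays lay below every control array and the other two among them. The difference was 0.35 in females (95% interval -0.21 to 0.90) and -0.57 in males (SE 0.266, adjusted P = 0.988, limma), and the interaction was 0.92 (SE 0.376, 95% interval 0.14 to 1.71, adjusted P = 0.972). Without female DKK1 replicate 5 the difference in females was 0.57.

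Of the 29 members, *ARID4A* also had the largest difference by sex. It averaged 6.23 ± 0.42 in females and 6.65 ± 0.54 in males (SD, n = 10 each), a difference of -0.43 (SE 0.188, adjusted P = 0.695, limma). The separation lay in the control arrays, where the 5 female arrays (5.69 to 6.31) did not overlap the 5 male arrays (6.69 to 7.14). Such a separation in controls was found for 1 of 29 members (3.45%) and 0.95% of all tested probe sets, and in DKK1 arrays for 0 members and 1.36% of all tested. Without male control replicate 2, female minus male was -0.40, the DKK1 difference in males was -0.53 and the interaction was 0.87, of which only the interaction kept an unadjusted P under 0.05.

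*ARID4B* had the smallest unadjusted P of the 29 members for DKK1 over both sexes. It was at 7.08, 6.87, 7.36, 7.43 and 7.25 in female DKK1, against 6.74, 6.86, 7.14, 6.77 and 7.03 in female control. It was at 6.69, 7.64, 7.39, 7.78 and 7.39 in male DKK1, against 6.93, 7.20, 7.47, 7.08 and 7.10 in male control. In females 3 of 5 DKK1 arrays exceeded every control array, and in males 2 did while male DKK1 replicate 1 was the lowest array of all. The difference was 0.26 (SE 0.125, adjusted P = 1.00, limma), 0.29 in females and 0.22 in males, with 8 of 10 DKK1 arrays above the control mean. In males it was 0.39 without male DKK1 replicate 1 and 0.12 without male DKK1 replicate 4. Female minus male was -0.21 (SE 0.125, adjusted P = 0.937).

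*ARID5A*, an RNA-binding protein that stabilizes cytokine transcripts in the mouse, was at 5.07, 5.57, 5.76, 6.54 and 5.84 in female DKK1, against 4.97, 5.65, 5.47, 4.95 and 5.75 in female control. It was at 5.44, 5.40, 4.77, 5.18 and 5.45 in male DKK1, against 5.71, 7.51, 5.29, 5.11 and 5.37 in male control. The single value of 7.51, in male control replicate 2, was the highest of all arrays. The range was 5.07 to 6.54 in female DKK1 and 4.95 to 5.75 in female control, and 4.77 to 5.45 in male DKK1 and 5.11 to 5.71 in the other 4 male control arrays. The difference in males was -0.55 and the interaction 0.95 (SE 0.508, adjusted P = 0.972, limma). Without this array they were -0.12 and 0.52. *ARID3A* had a DKK1 difference of -0.05 (95% interval -0.36 to 0.25).

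Other genes of the same complexes were examined from a list of 67 genes whose symbols the rule does not take, of which 60 were on the array and 52 probe sets were in the tested set. None had an adjusted P under 0.05 in any contrast. For DKK1 over both sexes 0 of 52 had an unadjusted P under 0.05, as in females alone. In males 2 of 52 had one (3.85%), beside 4.27% of all tested probe sets. The smallest P belonged to *RUVBL1*, an AAA+ ATPase of the INO80, SRCAP and TIP60 complexes, at 8.26 ± 0.33 in DKK1 and 7.95 ± 0.39 in control (SD, n = 10 each), a difference of 0.31 (SE 0.147, adjusted P = 1.00, limma). Next was *BCL7C*, a small SWI/SNF subunit, at 8.97 ± 0.22 in DKK1 and 9.28 ± 0.43 in control, a difference of -0.31 (SE 0.151, adjusted P = 1.00). Male control replicate 2 held the lowest *RUVBL1* value of all arrays, 7.32, and the highest *BCL7C* value, 9.91. Both differences include that array and are not given without it.

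For the interaction 4 of the 52 had an unadjusted P under 0.05 (7.69%), beside 4.6% of all tested. They were *ATRX* and, among the 9 tested probe sets listed as NuRD partners of *CHD4*, *MTA2*, *MBD3* and *HDAC1*. The NuRD subunit *RBBP7* was listed with ISWI and not among the 9, and its interaction was 0.18 (SE 0.175, adjusted P = 0.972, limma). *MTA2*, a scaffold of NuRD, had the smallest P, and averaged 7.08 ± 0.17 in female DKK1 and 7.34 ± 0.20 in female control, and 7.34 ± 0.15 in male DKK1 and 7.06 ± 0.16 in male control (SD, n = 5 each). Its DKK1 difference was -0.26 in females and 0.28 in males, and the interaction was -0.54 (SE 0.181, adjusted P = 0.972, limma). The methyl-CpG-binding-domain subunit *MBD3* had an interaction of -0.62 (SE 0.266, adjusted P = 0.972, limma) in its tested probe set and 0.17 (SE 0.224) in a dimmer probe set below the tested set. The deacetylase *HDAC1* had an interaction of 0.33 (SE 0.137). *MTA2* (0.28) and *HDAC1* (-0.20) were also the 2 genes counted in males. *CHD4* itself had an interaction of 0.33 (SE 0.252), and of 0.15 without male control replicate 2.

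For sex, 6 of the 52 had an unadjusted P under 0.05 (11.5%), beside 6.38% of all tested. There were 2 differences above 0 (3.85%), beside 3.71%, and 4 below (7.69%), beside 2.67%. The 2 above 0 were both X-linked according to the RefSeq genes of ARS-UCD2.0. *RBBP7*, a histone-binding WD40 subunit of NuRD and of the ISWI complex NURF, averaged 10.24 ± 0.14 in females and 9.81 ± 0.18 in males (SD, n = 10 each). Female arrays lay between 10.09 and 10.57 and male arrays between 9.55 and 10.10, so the sexes overlapped by a small margin. The difference was 0.43 (SE 0.0873, adjusted P = 0.0667, limma). The adjusted P ran from 0.0220 to 0.134 over the alternative settings, and it was 0.0439 without male control replicate 2, which had the lowest *RBBP7* value of all arrays at 9.55, while its *XIST* lay in the female range.

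*ATRX*, an SNF2-type ATPase that deposits histone H3.3 at heterochromatin with DAXX, averaged 9.28 ± 0.22 in females and 8.97 ± 0.27 in males, a difference of 0.32 (SE 0.107, adjusted P = 0.402). Female arrays lay between 8.96 and 9.71, and male arrays between 8.61 and 9.05 except male control replicate 2 at 9.61. Without that array the difference was 0.38 and the adjusted P was 0.0824, and over the alternative settings the adjusted P ran from 0.0557 to 0.621. The *ATRX* interaction was 0.52 (SE 0.213, adjusted P = 0.972). The 4 differences below 0 were those of *BRD9* (-0.29, adjusted P = 0.734) and *PHF10* (-0.37, adjusted P = 0.593) of SWI/SNF, *RUVBL1* (-0.33, SE 0.147) and *HELLS*, a remodeller needed for DNA methylation at repeats (-0.23, adjusted P = 0.686).

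**Figure D4:**
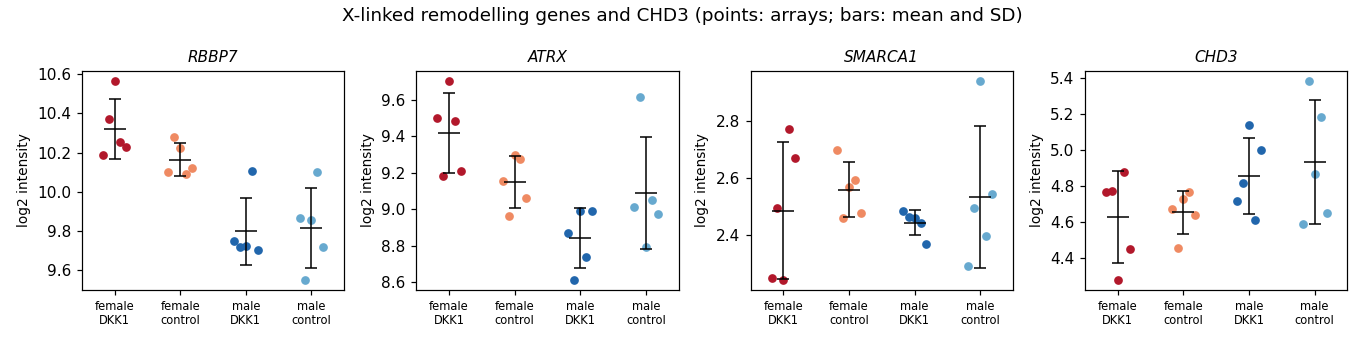
Log2 intensity (vertical axis, a separate scale for each gene) of the X-linked genes *RBBP7*, *ATRX* and *SMARCA1* and of *CHD3* in female DKK1, female control, male DKK1 and male control, with 1 point per array and bars for the mean and SD of 5 arrays. *RBBP7* lies at 10.09 to 10.57 in females and 9.55 to 10.10 in males, whereas *SMARCA1* lies near 2.50 in all groups.

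*SMARCA1* was the only X-linked member, and at its low signal it had a female minus male difference of 0.03 (95% interval -0.15 to 0.22, fit over all probe sets).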

How the data were processed

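RNA from pools of morulae was measured on a whole-transcript Affymetrix array of bovine genes. The deposited values are log2 intensities per probe set, which the authors obtained with RMA in Affymetrix Expression Console. No versions are given in the sources used here. RMA summarises each probe set over all arrays together. Probe sets differ in affinity, so levels of different genes are not comparable. No further normalization was applied, and groups came from the labels. The array number limits the precision, and P values measure the spread between pools.

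Gene symbols came from the platform annotation (18457 probe sets with 1 symbol, 688 with several, 7628 without) and chromosomes from the ARS-UCD2.0 gene table, matched for 37 of 37 members. The 10000 probe sets with the highest mean were compared with limma 3.58.1, run in R 4.3.3 (a model of the 4 groups, moderated variances, Benjamini-Hochberg adjustment over all 10000), after checking the procedure on simulated data. The remaining members were read from a fit over all probe sets. Plots used Python 3.11.15, pandas 2.3.3 and matplotlib 3.10.9. Values in every array are given for the 4 members with the smallest P for DKK1, sex and interaction, group means for the ATPases and extremes, and for partners the 2 smallest P in each. *SMARCA4* and *CHD3* arrays were added. The members and lists were chosen with earlier results of these data known.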

Additional observations from a re-analysis of the deposited data

Results flagged for a closer look

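In 10 of 148 groups of 5 arrays (37 members in 4 groups) 1 array lay far from the other 4. The rule flags about 1 in 20 groups of independent, normally distributed values. The members share arrays, and the share over all probe sets was not counted, so the 10 are a description only. Female control replicate 3 did so for 3 genes: *ARID1B* was at 7.13 there (others 6.61 to 6.69), *INO80B* at 5.70 (others 6.46 to 6.70) and *INO80C* at 6.81 (others 7.62 to 7.94). Male control replicate 2 did so for *ARID5A* at 7.51 (others 5.11 to 5.71) and *CHD2* at 9.79 (others 9.16 to 9.34). In the other control arrays *INO80B* was at 7.86 in male control replicate 3 (others 6.32 to 6.52), *INO80* at 6.83 in male control replicate 5 (others 6.62 to 6.66) and *SMARCA4* at 6.14 in female control replicate 5 (others 6.89 to 7.13). In female DKK1, *ARID4A* was at 5.50 in replicate 5 (others 6.50 to 6.77) and *ARID5B* at 5.59 in replicate 4 (others 4.05 to 4.38). The array with the highest average over the 29 members was female DKK1 replicate 4, at 7.60.

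The DKK1 difference of *ARID4A* differed between the sexes by an unadjusted test: it was 0.35 in females and -0.57 in males, an interaction of 0.92 (adjusted P = 0.972, limma). No member passed the adjusted threshold for this contrast.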

How the results depend on the processing

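Over 28 alternative settings no member had an adjusted P under 0.05 in any contrast, and every named difference kept its sign. The number of members with an unadjusted P under 0.05 for DKK1 over both sexes was 1 in place of 0 with a replicate block, with an unmoderated linear model, with array weights and with no filter on low values. For the interaction it was 2 in place of 1 under those 4 settings and with arrays centred on the median or quantile normalized. For female minus male it was 2 in place of 1 with no filter and 0 with the stricter set of 5000. Partner genes with an unadjusted P under 0.05 for DKK1 numbered 1 in place of 0 with no filter, over both sexes and in females.

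Leaving out 1 array at a time gave 0 to 2 such members for DKK1, 0 to 2 for sex, 0 to 3 for the interaction (0 without male DKK1 replicate 2, 3 without male control replicate 4), 0 to 4 in females (4 without female DKK1 replicate 5) and 1 to 3 in males (1 without male DKK1 replicate 5). The median difference of the members minus that of all tested ranged from -0.09 to 0.01 for DKK1, -0.05 to 0.02 for sex, 0.05 to 0.14 for the interaction, -0.01 to 0.08 in females and -0.15 to -0.01 in males. The 0.01 for DKK1 and the -0.01 in males were reached without male control replicate 2. The cause of these shifts was not tested. The interaction of *ARID4A* had an unadjusted P under 0.05 in 26 of 27 settings (not without male DKK1 replicate 2), and the *CHD8* difference in males in 28 of 28 (*ARID4A* is not in the stricter set). *ARID4A* had one in 20 of 27 for sex and 20 of 27 in males, and *CHD4* in males in 19 of 28. The adjusted P of *RBBP7* for sex was under 0.05 with the unmoderated model (0.0220), array weights (0.0266), the stricter set (0.0368), on leaving out male DKK1 replicate 4 (0.0340) or male control replicate 2 (0.0439).

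Replicate numbers are shared by the 4 groups, and the labels do not say that a number marks a shared batch. The paper states that pools were harvested in 5 replicates and does not tie these to the numbers. The 30 pairs of same-numbered arrays deviated together with correlations of -0.184 to 0.131, and 12 of 20 arrays correlated best with 1 of the 3 same-numbered arrays among the 15 of the other groups. The 12 of 20 is a larger share than the 3 of 15 on offer. Only 2 of the 30 correlations were over 0.1, and by that cut-off the numbers were not used to pair arrays. Whether a number marks a shared batch was not tested. The block changed no other call among these counts. Partly dim probe sets and 5 arrays per group limit what can be seen: a difference under 1.5-fold within 1 sex was seldom bounded, since the interval lay within that range for 12 of 29 members in each sex.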
